A study of Mus musculus with 84 samples.

Results

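Microglia are the resident macrophages of the brain, and this account follows 10 of their transcripts, C1qa, C1qb, C1qc, Tyrobp, Cx3cr1, Ctss, Csf1r, P2ry12, Trem2 and Aif1, through 84 libraries that were each made from 1 patched neuron. The 10 genes were taken by name as established microglial transcripts, and all 10 were present among the 19685 genes of the deposited count table. The cells came from acute prefrontal cortex slices of mice of the strain C57/BL6/N, with no treatment or transgene named. The content of each cell was drawn into the patch pipette, its polyadenylated RNA was amplified by the aRNA procedure (rounds of in vitro transcription) and a stranded TruSeq library was sequenced. Titles place 25 cells in a group F and 59 in a group P. The letters are not spelled out in the labels, although the series as a whole is said to compare pyramidal with fast-spiking cells. No animal, age or sex is given for any cell, so cells of one mouse cannot be told from cells of several, each group counts as 1 sample, and no test between the groups was made.

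Microglia sense neurons and clear debris through a small set of surface receptors. Neurons display the chemokine fractalkine, which the microglial receptor CX3CR1 binds, and they release nucleotides, which draw microglial processes through the receptor P2RY12. CSF1R carries the survival signal on which microglia depend, TREM2 signals through the adaptor TYROBP after binding lipids and apolipoproteins, and C1QA, C1QB and C1QC together form C1q, the molecule that starts the classical complement pathway and can tag synapses for removal. Neurons are not regarded as a main source of any of these RNAs, and every library here is labelled a neuron, so no library of a cell type known to express the members stood beside them for comparison.

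Some libraries stood apart from the rest. Total counts ran from 36594 to 12043599 in F cells (median 680044) and from 19802 to 16251918 in P cells (median 2706396). The 16 F libraries numbered 13 to 28 had a median of 246319 counts against 2707087 for the other 9 F libraries, and they were exactly the 16 libraries with at least 2 counts each of Klhl18, Celsr1 and Pno1. Detection shares and mean levels are therefore given with and without them. Libraries F11 and F12 had a Pearson correlation of 0.961 between their log2 levels over all genes, and treating both as 1 cell changed no direction of a member. Basecaller version bcl2fastq 1.8.4 was used for 3 F and 6 P cells and a later version, bcl2fastq2, for the other 75. As checks of the group labels, 7 of 8 measured GABAergic neuron markers had a mean at least 2-fold higher in F cells. All 10 of 10 glutamatergic neuron markers had a mean at least 2-fold higher in P cells. Over all measured genes these shares were 18.5% for F and 46.4% for P.

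Members were found in most cells, in small numbers. A member was called found in a cell when it had at least 1 count, and 63 of 84 cells (75%, exact 95% interval 64.4 to 83.8) held at least 1 of the 10. Of the F cells 18 of 25 did (72%, 50.6 to 87.9), and of the P cells 45 of 59 (76.3%, 63.4 to 86.4). These intervals, like all others here, are Clopper-Pearson or Poisson intervals that cover counting error only, since the RNA was amplified and no molecular identifiers mark single molecules. At least 3 members were found in 7 F cells (28%, 12.1 to 49.4) and in 30 P cells (50.8%, 37.5 to 64.1), and the median cell held 1 member in F and 3 in P. Without the 16 F libraries numbered 13 to 28 this difference was not seen at full depth. In the other 9 F cells, whose median depth was close to that of P cells, 7 held at least 1 member (77.8%, 39.99 to 97.2) and 5 at least 3 (55.6%, 21.2 to 86.3), a larger share than in P, and the median was 3 as in P.

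The spread among cells was wide. No member was found in 21 cells, 1 or 2 in 26, 3 to 5 in 24 and 6 to 8 in 4, which were F18 with 6 and P5, P26 and P29 with 7 each. The remaining 9 cells held nearly the whole set. F2, F5, P3, P19 and P21 had 9 members, and P2, P4, P32 and P33 had all 10. In the cells with 9 the missing member was C1qa in F2, P3 and P21, Aif1 in F5 and P2ry12 in P19. The heat map of member levels shows these cells at the left of each group, with F2 dark throughout since its summed members came to 8.67 CPM.

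**Figure D1:**
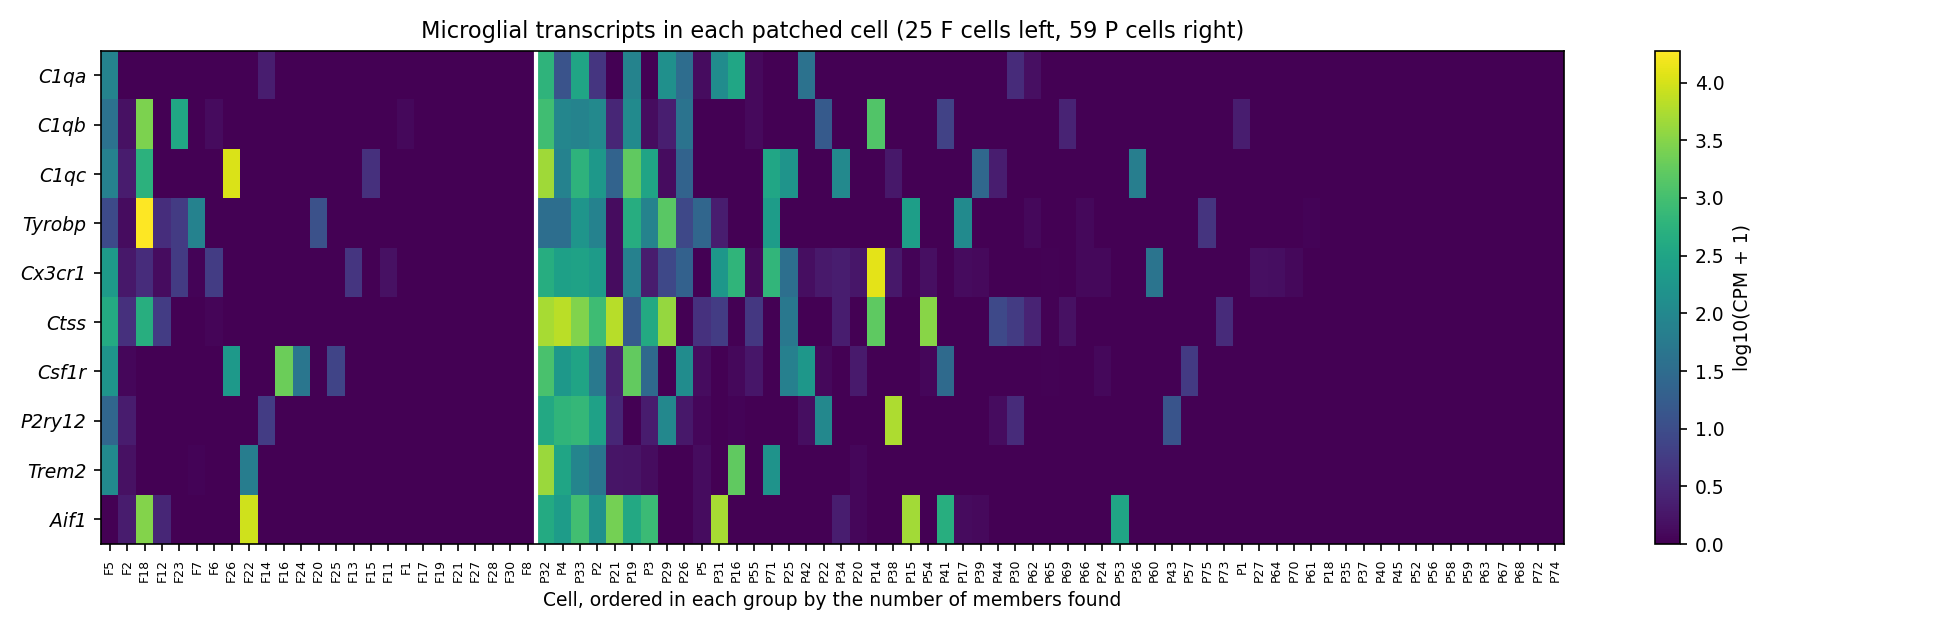
Level of each member in every cell, as log10 of counts scaled to 1000000 per cell (CPM) plus 1, with the 25 F cells left of the white line and the 59 P cells right of it. Within a group cells are ordered by how many members were found; the 2 F and 7 P cells with 9 or 10 members stand first, and many single bright squares lie outside them.

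Depth moved with these numbers. Cells without a member had a median of 291038 counts, those with 1 or 2 members 1352470, those with 3 to 5 members 3595805 and those with 9 or 10 members 5519488. Over the 84 cells the number of members found had a Pearson correlation of 0.49 with the log10 total (Spearman 0.59). The groups were therefore also compared after each cell was thinned at random to 86539 counts, which left out 3 F and 6 P shallower cells. After thinning, 12 of 22 F cells (54.5%) and 26 of 53 P cells (49.1%) held at least 1 member, while 2 F cells (9.09%) and 14 P cells (26.4%) held at least 3. With thinning and without the 16 F libraries, a combination chosen after seeing the data, 3 of 9 F cells (33.3%) held at least 1 and 1 (11.1%) at least 3. Over all 75 thinned cells the correlation of the members found with the log10 total before thinning was 0.27 (Spearman 0.23). It was 0.39 (0.41) in the 53 P cells and -0.13 (-0.33) in the 22 F cells. At full depth, 6 cells without any member had more than 1000000 counts.

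**Figure D2:**
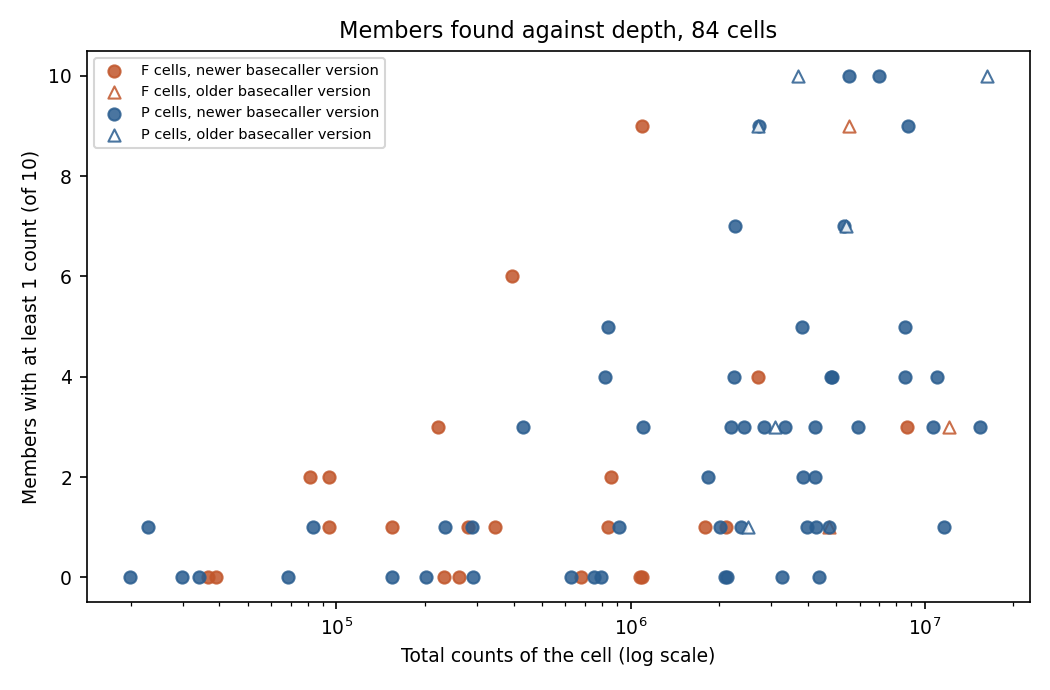
Number of members found (of 10) against the total counts of the cell on a log scale, for F cells (orange) and P cells (blue), with open triangles for the 9 cells of basecaller version 1.8.4. Cells with 9 or 10 members lie at 1091616 counts or more, while cells with none reach 4362905 counts.

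The basecaller version moved with the numbers as well. All 9 cells of version 1.8.4 held at least 1 member, 7 of the 9 held at least 3, and 4 (F2, P2, P3 and P4) were among the 9 cells with 9 or 10 members. Their median was 7 members. Among the 75 cells of the later version at least 1 member was found in 54 (72%) and at least 3 in 30 (40%). After thinning, at least 1 member was found in 5 of 9 cells of version 1.8.4 (55.6%) and 33 of 66 of the later version (50%). At least 3 were then found in 4 (44.4%) and 12 (18.2%), and none of the 3 F cells of version 1.8.4 held a member. The median gene number was 4978 in F and 5857 in P cells of the first kind, against 1996 and 3446 in the second. The part of depth, batch or cell in these differences was not tested.

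A call of found often rested on very few reads. Of the 840 combinations of a member and a cell, 229 were found, 59 of them (25.8%) at exactly 1 count, 27 at 2 to 4 counts, 143 at 5 or more and 99 at 100 or more. In 17 of the 63 cells with a member, each found member had a single count. Requiring 5 counts left 44% of F cells and 52.5% of P cells with at least 1 member. For the median member 20% of the cells in which it was found had 1 count, against 28.6% for the median gene among the 11324 measured genes, defined as those with a count in at least 8 cells.

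Levels are given as CPM, a count divided by the total of its cell and scaled to 1000000. Summed over the 10 members, the level had a lowest value of 0, a median of 5.83 and a highest value of 25725 in F cells (F18), and 0, 9.25 and 17943 in P cells (P32). The means were 1999 and 1646 CPM. In F cells the 3 highest, F18, F26 and F22, held 92.5% of the CPM summed over the group, while in P cells the 3 highest, P32, P14 and P21, held 43.7%. The sum reached 1000 CPM in 20 cells, 5 F and 15 P, which held 98.9% and 97.8% of their group. Of these, 10 held at least 6 members, 7 held 3 to 5 and 3 held 1 or 2.

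High sums came in a many-gene and a single-gene form. In 7 of the 20 cells 1 member held more than 90% of the member counts: Csf1r in F16 (100%), Aif1 in F22 (99.3%), C1qc in F26 (98.2%), Aif1 in P15 (95.1%) and P31 (94.5%), P2ry12 in P38 (99.97%) and Ctss in P54 (99.98%). In P14 counts were found for only 3 members, with 38976 of Cx3cr1, 5074 of Ctss and 3964 of C1qb. In P32, by contrast, the 10 members had 190 (Tyrobp) to 28308 (Ctss) counts each, and in P33 561 (C1qb) to 20047 (Ctss). F18 lay between these forms, with 7455 counts of Tyrobp, 1216 of Aif1, 1074 of C1qb, 221 of C1qc, 189 of Ctss and 1 of Cx3cr1, and none of C1qa, Csf1r, P2ry12 or Trem2. F5 had 9 members at 9 (Tyrobp) to 448 (Ctss) counts and no Aif1. F2 also had 9 members, but none above 16 counts, and none was left in it after thinning.

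C1qa, C1qb and C1qc encode the chains that assemble into C1q. The genes lie side by side within 18675 bases of chromosome 4 (mm10, chr4:136880129-136898803, GENCODE vM21), in the order C1qb (ENSMUSG00000036905.8), C1qc (ENSMUSG00000036896.5) and C1qa (ENSMUSG00000036887.5), all on the minus strand. C1qa counts were present in 2 F cells (8%, 0.984 to 26.03) and 14 P cells (23.7%, 13.6 to 36.6). C1qb was found in 6 F cells (24%) and 15 P cells (25.4%). C1qc was found in 5 F cells (20%) and 16 P cells (27.1%).

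A median cell of either group had 0 CPM of each chain. C1qa reached 79.7 CPM in F5 and 598 CPM in P32, and its mean was 3.23 CPM in F and 28.6 CPM in P, a log2 fold of F over P of -2.81. (Folds use the mean CPM of a group plus 1 CPM.) C1qb reached 2720 CPM in F18 and 1285 CPM in P14, with means of 125 and 45.2 CPM and a log2 fold of 1.44. The groups overlapped fully for both genes, as most cells of either had none. Without F18 the C1qb fold was -1.39. C1qc reached 10910 CPM in F26 and 4598 CPM in P32, with means of 462 and 139 CPM and a log2 fold of 1.73, which was -2.34 without F26. For C1qb and C1qc the sign of the difference between means thus followed 1 F cell each.

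The chains were seldom found as a full set. All 3 were found in 8 cells (F5, P2, P4, P19, P26, P29, P32 and P33), none in 47, and exactly 1 in 24, divided into 9 cells with C1qc, 8 with C1qb and 7 with C1qa. C1qb and C1qc without C1qa occurred in 4 cells, C1qa and C1qb without C1qc in 1, and C1qa and C1qc without C1qb in none. Within the 8 cells the share of C1q counts that fell to C1qa ran from 1.21% in P2 and 4.26% in P19 to 41.4% in F5 and 98.8% in P29. The share of C1qc ran from 0.269% in P29 to 90% in P19. The counts of neighbouring genes whose products assemble together therefore stood in very different ratios from cell to cell.

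Promoter stretches of 4 members are shown because microglial identity depends on the ETS factor PU.1, whose core site many microglial genes carry, and because the C1q genes were found together in only part of the cells. RefSeq windows of GRCm38.p6, from 250 bases before to 50 after the start of the gene, were matched for 7 of the 10 members. The 7 letters AGGAAGT, on either strand, were found in 4 of these (P2ry12, Ctss, C1qb and C1qc) and in 9.35% of all 32851 windows. The longer form GAGGAAGT, which contains the first, was found in Ctss and C1qc and in 3.20% of windows. A match is a description of letters and no evidence of binding. Stretches around the AGGAAGT match follow, 5′ to 3′ on the strand of the gene, with the match in capitals (ACTTCCT is the same site read on the other strand).
C1qb, chr4:136886217-136886283, minus strand: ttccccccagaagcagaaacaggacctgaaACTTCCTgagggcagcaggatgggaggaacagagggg
C1qc, chr4:136893073-136893139, minus strand: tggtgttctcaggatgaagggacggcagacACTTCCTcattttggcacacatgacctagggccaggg
P2ry12, chr3:59263001-59263067, minus strand: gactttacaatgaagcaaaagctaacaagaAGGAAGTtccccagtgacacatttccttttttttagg
Ctss, chr3:95526754-95526790, plus strand: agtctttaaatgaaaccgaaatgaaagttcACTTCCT

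Tyrobp (ENSMUSG00000030579.10, chr7:30413760-30417585, plus strand) encodes the adaptor through which TREM2 signals. It was found in 7 F cells (28%, 12.1 to 49.4) and 18 P cells (30.5%, 19.2 to 43.9). Its level reached 18883 CPM in F18, while the next F cell, F7, had 78.5 CPM, and it reached 1544 CPM in P29 and 469 CPM in P19. F18 alone held 99.4% of the CPM summed over F cells. The means were 760 CPM in F and 51.5 CPM in P, a log2 fold of 3.86, and the fold was -3.29 without F18.

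Trem2 (ENSMUSG00000023992.14, chr17:48346401-48354147, plus strand), the lipid-sensing receptor, was the member found in the fewest cells, 4 F (16%, 4.54 to 36.1) and 11 P (18.6%, 9.69 to 30.9). Its highest levels were 110 CPM in F5 and 63.8 CPM in F22 among F cells, and 4279 CPM in P32 and 1710 CPM in P16 among P cells. The means of 6.97 and 112 CPM gave a log2 fold of -3.82, or -2.37 without P32. Receptor and adaptor were found together in 12 cells, Trem2 without Tyrobp in 3, Tyrobp without Trem2 in 13 and neither in 56. Of the cells with the receptor, 80% thus also had its adaptor. This was not particular to the adaptor, since 80% of them also had Csf1r and 86.7% Cx3cr1. The other members were found in 53.3% (C1qa) to 73.3% (Aif1) of these cells.

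Cx3cr1 (ENSMUSG00000052336.7, chromosome 9, minus strand), the fractalkine receptor, was the most widely found member, in 9 F cells (36%, 17.97 to 57.5) and 31 P cells (52.5%, 39.1 to 65.7). It was also the member most often found at the limit of detection, with exactly 1 count in 21 of its 40 cells (52.5%) and at least 5 counts in 16. P14 had 12631 CPM and P71 664 CPM, and the highest F cell, F5, had 211 CPM. The means of 9.12 and 263 CPM gave a log2 fold of -4.71, or -2.34 without P14. The median P cell had 0.0937 CPM, the only median of any member above 0 in either group. Exons of Cx3cr1 overlap those of Gm33858, an antisense gene on the opposite strand. As the strand setting of the counting is unknown, reads of both may have been mixed.

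P2ry12 (ENSMUSG00000036353.13, chr3:59216272-59262871, minus strand), the nucleotide receptor often used to tell resting microglia from other macrophages, was found in 3 F cells (12%, 2.55 to 31.2) and 16 P cells (27.1%, 16.4 to 40.3). F cells reached 24.7 CPM (F5), and P cells reached 5533 CPM (P38) and 707 CPM (P33). The means were 1.22 and 131 CPM, a log2 fold of -5.90 that was -4.15 without P38. The gene lies inside Med12l, transcribed from the opposite strand, with overlapping exons. Whether reads were counted by strand is not known from the labels, and reads of both genes may have been mixed. Med12l was found in 24 cells, 6 of them shared with P2ry12.

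Csf1r (ENSMUSG00000024621.16, chromosome 18, plus strand), the receptor for the survival factors CSF1 and IL-34, was found in 6 F cells (24%) and 20 P cells (33.9%, 22.1 to 47.4). Its level reached 2093 CPM in F16 and 1805 CPM in P19. The means of 100.1 and 66.4 CPM gave a log2 fold of 0.59, or -1.90 without F16, in which no other member was found. Its exons overlap those of Hmgxb3 on the opposite strand, which was found in 21 cells, 8 of them shared with Csf1r.

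Ctss (ENSMUSG00000038642.10, chr3:95526786-95556403, plus strand) encodes cathepsin S, a lysosomal protease of antigen-presenting cells. It was found in 5 F cells (20%) and 21 P cells (35.6%, 23.6 to 49.1). F cells reached 479 CPM (F18) and 410 CPM (F5), and P cells 6697 CPM (P4) and 6513 CPM (P21). The means of 35.9 and 534 CPM gave a log2 fold of -3.86. Summed counts were 668 in F (Poisson interval 618 to 721) and 152715 in P (151950 to 153483). These sums were not scaled for the number or depth of cells, and the intervals do not cover the spread between cells. Of the members, Ctss depended least on 1 P cell, since P4 held 21.3% of the CPM summed over P cells, against 81.3% for P14 in Cx3cr1.

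Aif1 (ENSMUSG00000024397.14, chr17:35170991-35176068, minus strand) encodes IBA1, the cytoskeletal protein by which microglia are usually stained. It was found in 4 F cells (16%, 4.54 to 36.1) and 16 P cells (27.1%). Levels reached 9322 CPM in F22 and 3080 CPM in F18, and 5257 CPM in P31 and 4808 CPM in P15. The means were 496 and 275 CPM, a log2 fold of 0.85 that was -1.09 without F22. Where it was found it was seldom at the limit, with 1 count in 4 of 20 cells and at least 100 CPM in 13.

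Over all libraries each of the 10 members was found in a larger share of P than of F cells, as were 72.8% of measured genes. The order held for the 10 after thinning (59.4% of measured genes), where Csf1r was closest (18.2% of F and 18.9% of P cells) and Aif1 farthest apart in percentage points (9.09% and 22.6%). The binomial intervals of the groups overlapped for each of the 10. At full depth and without the 16 F libraries, the order turned for 5 members, and 31.7% of measured genes were then found in a larger share of P cells. Cx3cr1 was found in 6 of the other 9 F cells (66.7%), C1qb, Tyrobp and Ctss in 4 each (44.4%) and Trem2 in 3 (33.3%), each above its share of P cells. C1qc, Csf1r, P2ry12 and Aif1, in 2 each (22.2%), and C1qa, in 1 (11.1%), stayed below it. With thinning as well, 8 of 10 members had the larger share in P (47.5% of measured genes), the exceptions being Tyrobp and Ctss. When each F cell was set against each P cell, the F cell was the higher one in 41.4% (Cx3cr1) to 48.9% (C1qb) of pairs, with tied pairs, mostly cells without the member, divided equally.

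**Figure D3:**
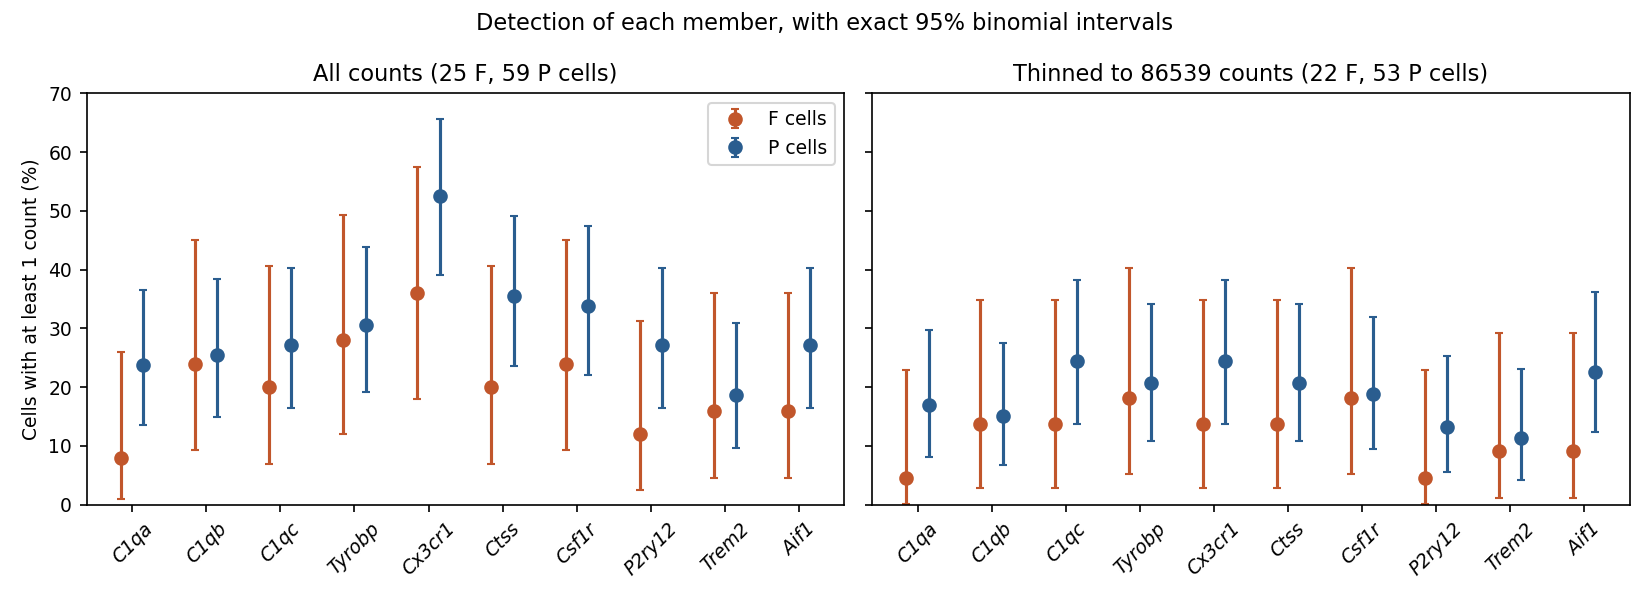
Percent of F (orange) and P (blue) cells with at least 1 count of each member, with exact 95% binomial intervals, from all counts (left) and after thinning each cell to 86539 counts (right). With the 16 F libraries numbered 13 to 28 included, P cells lie above F cells for all 10 members in both panels, and the intervals overlap throughout.

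Mean levels depended on single cells. By mean CPM 5 members were higher in F cells (C1qb, C1qc, Tyrobp, Csf1r and Aif1), where 34.7% of measured genes were. At least 2-fold higher in F were 3 members (C1qb, C1qc and Tyrobp), against 18.5% of measured genes, and at least 2-fold higher in P were 5 (C1qa, Cx3cr1, Ctss, P2ry12 and Trem2), against 46.4%. The median log2 fold was -1.11 over the members and -0.79 over the measured genes. For each of the 5 members with the higher F mean, leaving out 1 of the F libraries numbered 13 to 28 turned the sign (F18 for C1qb and Tyrobp, F26 for C1qc, F16 for Csf1r and F22 for Aif1). With TMMwsp scaling factors in place of cell totals, the means of C1qb and Aif1 were also lower in F, with folds of -2.37 and -0.99. Without those 16 libraries no member was higher in F (33.4% of measured genes were) and 10 of 10 were at least 2-fold higher in P (45.6% of measured genes were), with a median log2 fold of -3.24 against -0.75 for the measured genes. Folds without them ran from -1.59 (C1qa) to -7.70 (Aif1). The means of Cx3cr1, Ctss, P2ry12, Trem2 and C1qa were higher in P with and without these libraries. With the highest and lowest 20% of cells trimmed from each group, however, none of these 5 was 2-fold apart: the folds were -0.82, -0.86, -0.078, 0 and -0.042. As differences of mean log2(CPM + 1) they were -1.06 for Cx3cr1 and -1.30 for Ctss, but -0.88 for P2ry12, -0.36 for Trem2 and -0.82 for C1qa.

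Co-detection of members was measured over the 45 pairs that they form. Both genes of a pair were found in 7 cells (C1qa with Aif1) to 20 cells (Tyrobp with Cx3cr1 and Cx3cr1 with Ctss), with a median of 12. As a share of the cells with either gene, this was 24.1% for C1qa with Aif1 and 52.2% for C1qa with P2ry12, with a median of 38.2%. Thinning left the median at 37.5%, and a limit of 5 counts at 38.9%. The background was all pairs of the 6296 measured genes found in a similar number of cells (15 to 40). Its median was 25%, with quartiles of 18.8% and 31.1%. No background was computed after thinning or at the limit of 5 counts. Among marker lists described below, 10 pairs of 5 other microglia markers in that range had a median of 29.9%. For 6 pairs of 4 astrocyte markers it was 23.4%, and the only oligodendrocyte lineage pair had 29.2%. These values lay within the background quartiles, so the higher value was seen for the members and not for other microglia markers. All pairs share the same libraries and their depth, so this is a description of these cells.

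**Figure D4:**
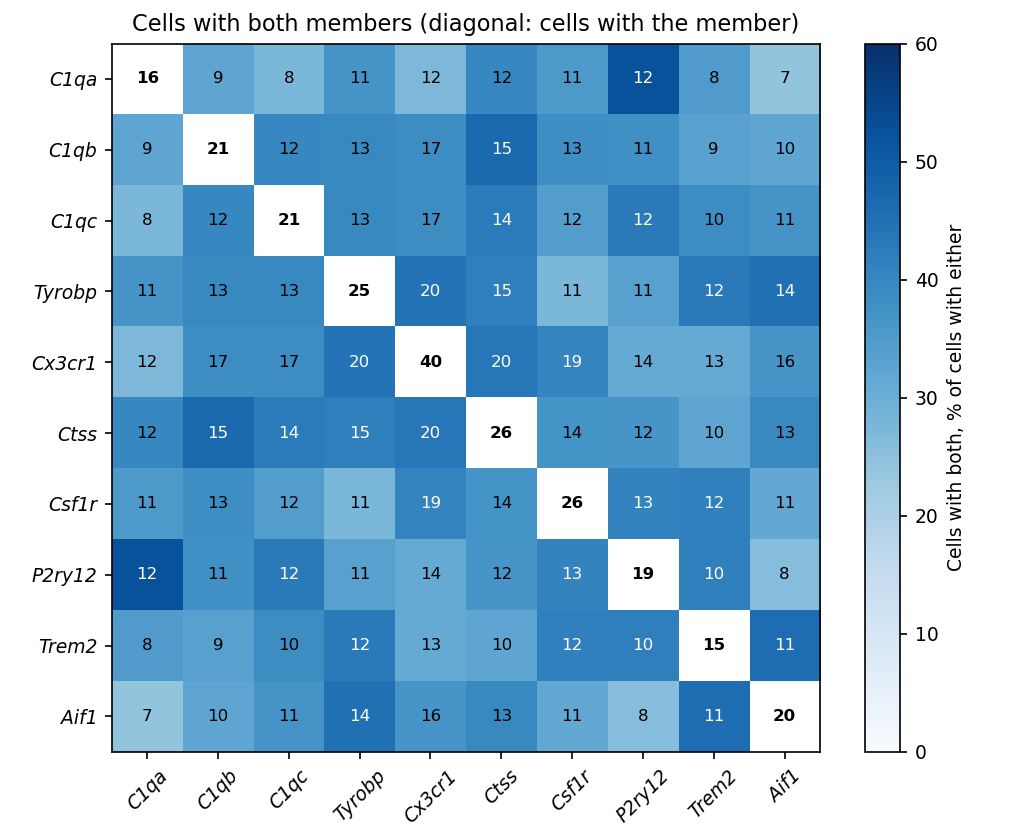
Number of cells in which both members of a pair were found (figures in the squares; the diagonal gives the cells with that member), with the colour showing this number as a percent of the cells with either member. Counts off the diagonal run from 7 to 20 cells, and C1qa with P2ry12 has the darkest square at 52.2%.

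Members differed in how often they stood alone. C1qa and Trem2 were never found without another member, and the median cell with Trem2 held 8 others. The median cell with C1qa, C1qb, C1qc or P2ry12 held 6 others, with Tyrobp 5 and with Cx3cr1 3. Cx3cr1 was the only member found in 6 of its 40 cells (F11, F13, P27, P60, P64 and P70), and Csf1r in 4 of its 26. Trem2 was found with Cx3cr1 in 13 of its 15 cells (86.7%).

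Further microglial genes accompanied the members. Of 22 other microglia markers, all were in the table (Spi1, which encodes PU.1, under its older symbol Sfpi1) and 15 were measured. Of these, 3 had a mean at least 2-fold higher in F, against 18.5% of measured genes. At least 2-fold higher in P were 9, against 46.4% of measured genes, and the median log2 fold was -2.23. Without the 16 F libraries the numbers were 1 and 10, against 19.3% and 45.6% of measured genes, with a median of -2.94. Among the more widely found were Laptm5, a lysosomal membrane protein of blood-derived cells (4 F and 18 P cells) and Itgam, the integrin CD11b (3 F and 15 P cells).

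The number of members found in a cell had a Pearson correlation of 0.81 with the number of these 22 markers (Spearman 0.62, n = 84 cells, and Pearson 0.78 without the 2 farthest cells), and of 0.85 after thinning (Spearman 0.70, n = 75). Of the 22, P2 held 17, P32 15, P3 and P4 12 each, P33 11, F2 9, F5, F18 and P19 8 each, and P5 and P21 6 each, while the 21 cells without a member held 0 to 5. P26 and P29, with 7 members, held only 3, and P16 and P25, with 5 and 4 members, held 8 each. In F18, the cell with the highest summed members, the summed level of these markers was 27860 CPM, the highest of the F cells, and in P32 it was 17463 CPM, the highest of the P cells. The same cells thus led both lists.

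Markers of other cell types were compared over the same thinned cells. The Pearson correlation was 0.39 with astrocyte markers (Spearman 0.24), 0.25 with oligodendrocyte lineage markers (0.27), 0.09 with endothelial and mural markers (0.20) and 0.07 with perivascular macrophage markers (0.13). These are descriptions over cells that share libraries and depth, and their differences were not tested. Among the 53 thinned P cells the value for other microglia markers was 0.85 (Spearman 0.77), against 0.30 (0.24) for astrocyte markers. Among the 22 thinned F cells the Spearman value for other microglia markers, 0.41, was no higher than that for endothelial and mural markers (0.42) or glutamatergic markers (0.48), and the Pearson value of 0.84 was 0.47 without the 2 farthest cells. Astrocyte markers were widespread: summed over 13 genes they ran from 0 to 224579 CPM in F and from 0 to 106220 CPM in P, and 23 F and 58 P cells had at least 1 of them. The glutamate transporter gene Slc1a2 was found in 65 cells and Aldoc in 46. Of 12 oligodendrocyte lineage markers in the table, Mbp was found in 44 cells and Olig1 in 16, and the summed level reached 3575 CPM in F and 12420 CPM in P. Of 10 endothelial and mural markers, Vwf was found in 15 cells, Pdgfrb in 13 and Tek in 10, and the sum reached 3156 CPM in F and 224 CPM in P.

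**Figure D5:**
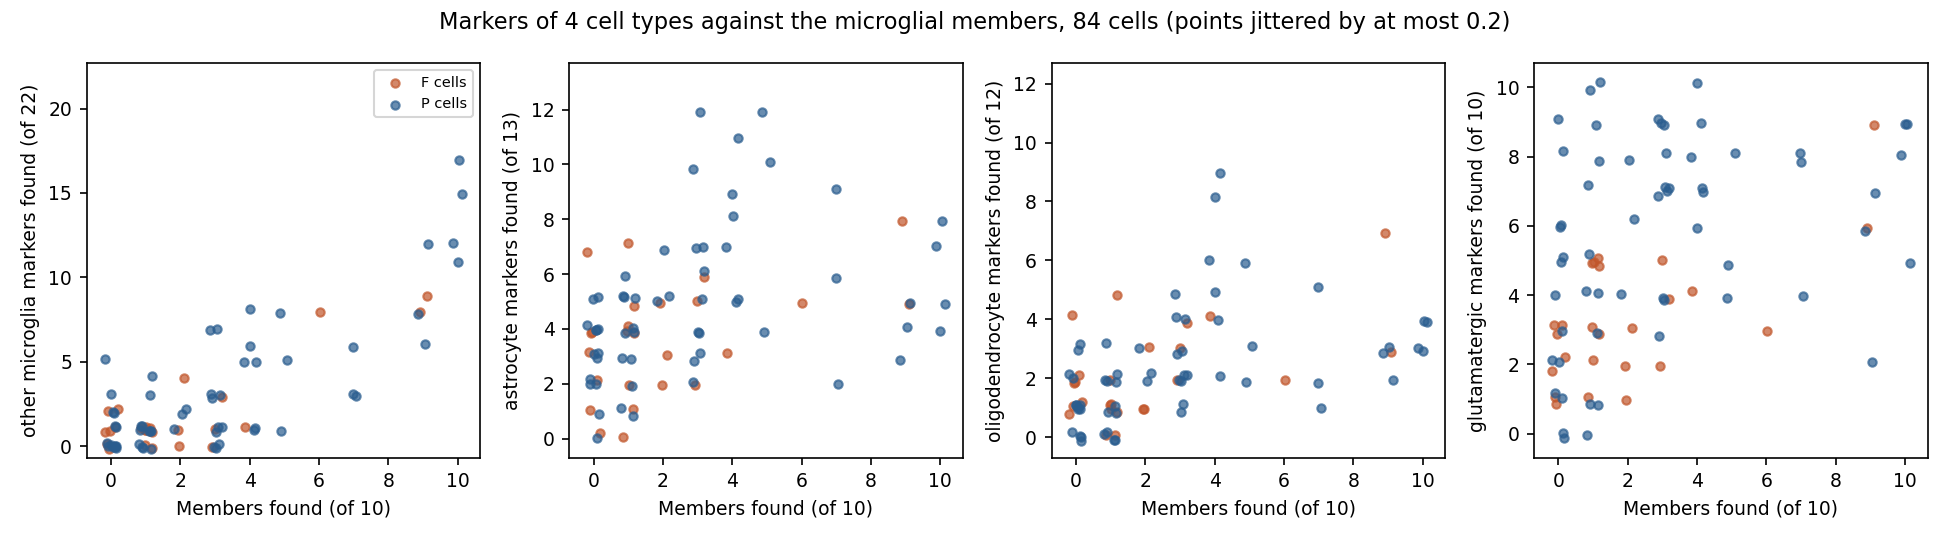
Number of markers found in each cell for other microglia markers, astrocytes, the oligodendrocyte lineage and glutamatergic neurons, against the number of members found, for F (orange) and P (blue) cells, with points moved by at most 0.2 so that they do not hide each other. Other microglia markers climb to 17 only where many members were found, while glutamatergic markers reach 9 in cells without a member.

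Perivascular macrophages, the other resident macrophages of the brain, share several members with microglia, so their own markers were read beside them. Of 8 such genes, 7 were in the table (not Pf4) and 3 were measured: Stab1 (23 cells), Mrc1 (13 cells) and Ms4a7 (11 cells), with group means of at most 1.64 CPM. Cd163 had 5 counts in all and Cbr2 1 count. The summed level of the list reached 54.7 CPM in F (F28) and 29.2 CPM in P (P45). In the 13 cells with at least 6 members it was 0 to 11.9 CPM.

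Neuronal transcripts were present in the same libraries. Counts of at least 1 glutamatergic or GABAergic marker were present in 82 of all 84 cells, among them the 13 cells with at least 6 members. Among F cells, Gad1, which makes the transmitter GABA, was at 5071 CPM in F5 and 2357 CPM in F2, but at 0 in F18. There the glutamatergic markers Slc17a7 (162 CPM) and Camk2a (137 CPM) had counts. In all, F18 held 2 GABAergic markers summing to 367 CPM and 3 glutamatergic markers summing to 301 CPM. Among P cells, the neuronal gene Arpp21 was at 2386 CPM in P32, 1040 CPM in P33, 3041 CPM in P19 and 2145 CPM in P21. It was at 181 CPM in P4 and at 0 in P29, which had 7 members. Other glutamatergic markers differed from it, with Nrgn at 0 and Camk2a at 0.37 CPM in P21, and Camk2a at 0.91 CPM in P19. Of the 10 glutamatergic markers, P33 held 9, P4 8, P19 6, P32 5, P29 4 and P21 2. The part of RNA from other cells in the member counts was not tested.

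Ligands and partners of the members were read from the same cells. Of 16 such genes 14 were present (not C1s and C1s1) and 8 were measured. Of the 8, 2 were at least 2-fold higher in F and 3 at least 2-fold higher in P, with a median log2 fold of -0.73. Across all measured genes 18.5% and 46.4% were, with a median of -0.79. Cst3, the cystatin that inhibits cathepsins such as cathepsin S, was found in 59 cells, with means of 302 CPM in F and 768 CPM in P. Cx3cl1, which encodes the neuronal ligand of CX3CR1, was found in 48 cells (8 F and 40 P), with means of 191 and 476 CPM. In contrast to its receptor, it had at least 5 counts in 40 of those cells. Apoe, whose product TREM2 binds, was found in 45 cells, with means of 186 and 454 CPM.

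Outside all lists, the 8 genes whose log2(CPM + 1) followed the summed members most closely over the 84 cells, of 10651 ranked, were Rnaset2b (Pearson r = 0.53), Rps16 (0.52), Rps23 (0.52), Rpl12 (0.51), Rps3a1 (0.51), Sparc (0.51), Rps24 (0.51) and Tpt1 (0.498), with Spearman values of 0.44 to 0.53. Of these, 5 encode ribosomal proteins, which nearly all cells express. Rnaset2b encodes a lysosomal ribonuclease and Sparc a secreted matrix protein. Of the 9 cells with 9 or 10 members, all had Rnaset2b, the 5 ribosomal protein genes and Tpt1, and 8 had Sparc. Rnaset2b was found in 19 cells in all (5 F and 14 P).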

How the data were processed

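The authors deposited 1 table of unnormalized whole-number counts per gene and cell. The submitters' processing notes name STAR 2.4.0, the build mm10 and bcl2fastq. How reads were counted, with which annotation and strand setting, is not given in the sources used here. Groups came from the titles. Members and marker lists were chosen with earlier results of these data known.

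Counts were divided by the cell total to give CPM, averaged over cells with equal weight. The fold was (mean F + 1)/(mean P + 1), and at least 2-fold was called. A gene was measured with a count in at least 8 cells. Thinning drew 86539 counts per cell without replacement, the 10th percentile of the totals. The named genes were all members, the 3 most widely found of each list and the 8 outside genes most correlated with the summed members; 3 genes that this rule names are not reported here. Levels named for single cells beyond these (Slc17a7, Cd163, Cbr2, the genes marking 16 F libraries, and those of F18 and F5 in the closing section) were chosen after their values were seen. Marker sums named for F8, F13, F22, F26 and P67 were chosen in the same way. Mean levels were not compared between genes, since counts were not divided by length. Shares of member or C1q counts within a cell, and sums over markers, were likewise not corrected for length. The scripts were tested on simulated data. Positions came from GENCODE vM21 and promoters from RefSeq. Tools were Python 3.11.15, numpy 2.4.6, pandas 2.3.3, scipy 1.17.1 and edgeR 4.0.16, used only for TMMwsp scaling factors.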

Additional observations from a re-analysis of the deposited data

How the results depend on the processing

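No paired analysis was possible because the result comes from no test and no label ties an F to a P cell of the same number. The number of members with the higher F mean (5) was 1 with pooled counts or mean log2 levels, 0 with trimmed means, in the older basecaller version alone or without the 16 F libraries, 3 with TMMwsp scaling or without libraries under 100000 counts, and 3 to 5 with each cell left out in turn.
The share of F cells with at least 1 member (72%) was 48% at 2 counts, 44% at 5 counts and 100% in the older version. That with at least 3 (28%) was 9.09% thinned, 66.7% in the older version and 55.6% without the 16 libraries. With thinning and without those libraries, chosen after seeing the data, these were 33.3% and 11.1%. For P cells, at least 1 member (76.3%) became 57.6% at 2 counts, 52.5% at 5, 49.1% thinned and 100% in the older version, and at least 3 (50.8%) became 28.8%, 27.1%, 26.4% and 83.3%.
The C1qb fold (1.44) was -1.15 with pooled counts, -0.097 with trimmed means, -0.036 with mean log2 levels, -2.37 with TMMwsp, -7.51 in the older version and -3.07 without the 16 libraries, and -1.39 to 2.34 with each cell left out. C1qc (1.73) was in that order -3.17, -1.18, -0.41, positive with TMMwsp, -6.16 and -3.92, with -2.67 thinned and -2.24 without shallow libraries, and -2.34 to 2.88 with each cell left out. Tyrobp (3.86) was -0.18 with trimmed means, -0.16 with mean log2 levels, -5.06 in the older version, -2.26 without the 16 libraries and -3.29 to 4.83 with each cell left out. The cause of these changes was not tested. Depth limits what an absence shows: a count of 0 in a cell allows up to 3 counts of its total. TMMwsp scaling moved the median log2 fold over all measured genes from -0.79 to -0.82, but that over the members from -1.11 to -3.03.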

Other observations

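Genes that microglia switch on when activated were read as a further list of 15, all in the table, of which 5 were measured. The most widely found were Lpl, a lipoprotein lipase (21 cells), the receptor gene Axl (18 cells) and the chemokine gene Ccl3 (12 cells, with means of 139 CPM in F and 16.8 CPM in P). Pearson correlations of their levels with those of the members were 0.03 for Lpl, -0.03 for Axl and 0.21 for Ccl3. F5, which had 9 members, held the highest Ccl3 level at 2277 CPM. The same library had 693 CPM of the chemokine Ccl4, 256 CPM of Tnf and 59.5 CPM of Il1b, and the summed level of the list there, 3286 CPM, was the highest of all F cells. F8, in which no member was found, had 1204 CPM of the list. The highest P cell was P33 at 1547 CPM, which had all 10 members. P4 and P19, with 10 and 9 members, had none of these 15 genes. The number of members found and the number of these genes had a Pearson correlation of 0.49 over the 75 thinned cells (Spearman 0.35), and of 0.30 without the 2 farthest cells.

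The other microglia markers of F18, the cell with 18883 CPM of Tyrobp, included Tmem119 at 13478 CPM, Fcer1g at 4316 CPM and Sall1 at 3055 CPM. This library had 394790 counts in all.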
